A study of Homo sapiens with 6 samples.

Results

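MDA-MB-231 cells, a human triple-negative breast cancer (TNBC) cell line first grown from a pleural effusion, were profiled here in their vehicle-treated state. The 3 vehicle samples of the 6 RNA sequencing samples were taken by their treatment label, and the samples given the herbal extract of Salvia chinensis Benth (SCH) were not read. The study set vehicle against SCH to learn how the extract acts on TNBC cells. All cells carried the genotype label wild type and were held with vehicle for 24 h before RNA extraction, and the series describes the samples of a group as biological repeats. What the vehicle was is not given in the sources used here. The labels name RPMI-1640 with 10% fetal bovine serum as the medium, whereas the methods of the study name DMEM for this line. Of 58735 genes in the deposited table, the 19951 with the biotype protein_coding were described. The values describe an established line in culture without stroma, and not a tumor.

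As background, breast epithelium is built of luminal cells, which carry the simple keratins and can carry hormone receptors, and of basal or myoepithelial cells, which carry the basal keratins and the factor p63. Epithelial cells are held together by E-cadherin. In an epithelial-mesenchymal transition, factors of the SNAIL, ZEB and TWIST families silence E-cadherin and the cell builds vimentin filaments. TNBC is defined by the lack of the estrogen receptor, the progesterone receptor and amplified HER2. Lines of this disease are commonly split into a basal type and a mesenchymal-like type.

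Total counts on genes were 20291379, 18714240 and 18334857 in vehicle 1, 2 and 3. A count was found for 23102, 22754 and 22723 genes, respectively, and protein-coding genes took between 97.9% and 98.0% of the counts. Levels are given as FPKM, fragments per kilobase of exonic length and library size, scaled by the authors to a common depth, so that genes of different length can be set side by side. Errors are the SD over the 3 samples. They cover only these cultures, and they hold library differences and counting noise beside the spread between cultures. Vehicle 3 stood somewhat apart from the others. The median absolute log2 difference of a gene was 0.07 between vehicle 1 and 2, 0.11 between vehicle 1 and 3 and 0.12 between vehicle 2 and 3. No pair was a copy, since chi-square over its degrees of freedom was 2.04 for the closest pair and 6.25 for the most distant, where 1 is what repeated sampling of a library would give. The numbers of expressed, silent and highly abundant genes and the replicate spread are therefore also given without vehicle 3, whereas gene lists, families and promoters are described on all 3 samples.

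About as many protein-coding genes were expressed as were not. Of 19951 genes, 10067 (50.5%) reached 1 FPKM in every vehicle sample, which is the definition of an expressed gene used below, and without vehicle 3 there were 10127. A further 351 genes lay on both sides of 1 FPKM in different samples. At the other end, 4206 genes (21.1%) had no count in any sample, or 4563 without vehicle 3, and 7233 (36.3%) had a mean under 0.1 FPKM. The median over all genes was 1.19 FPKM and that of the expressed genes 8.35 FPKM. Between 1 and 10 FPKM lay 5795 genes, and between 10 and 100 FPKM 4061 genes. The 387 genes at or above 100 FPKM (1.94%; 390 without vehicle 3) held 48.7% of all protein-coding FPKM, and 425 genes were enough to reach 50%. The 100 most abundant genes held 32.1% and the 10 most abundant 13.3%. These values depend on the unit and the gene length. At or above 100 TPM there were 1687 genes, and 647 reached 100 FPKM with the length of the longest protein-coding transcript. The 100 genes with the most counts held 18.2% of counts.

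**Figure D1:**
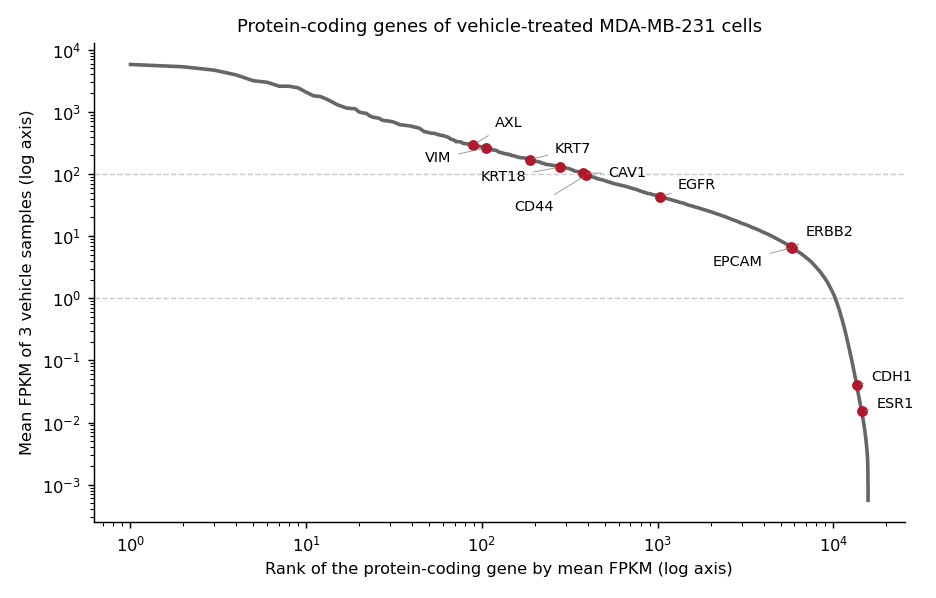
Mean FPKM of the 3 vehicle samples (log axis) against the rank of each protein-coding gene with a count (log axis), with 11 marker genes in red and dashed lines at 1 and 100 FPKM. AXL and VIM lie at ranks 89 and 106, and CDH1 and ESR1 lie below 0.1 FPKM; PGR, with 0 counts, is not drawn.

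The most abundant transcripts came from the mitochondrial genome, which encodes subunits of the respiratory chain and ATP synthase. MT-ATP6 headed the order with 5901, 5842 and 5627 FPKM in vehicle 1, 2 and 3, and MT-CO3, MT-CO2 and MT-CO1 followed at means of 5316, 4686 and 3929 FPKM. Of the 20 genes with the highest mean, 10 were mitochondrial, and the 13 mitochondrial genes together held 13.3% of protein-coding FPKM. The leading nuclear gene was FTL, the light chain of the iron store ferritin, at 2584 ± 31.0 FPKM (SD, n = 3). MT2A, a metal-binding metallothionein, had 2150, 1994 and 2073 FPKM. EEF1A1, which brings aminoacyl-tRNA to the ribosome, stood at 1816 ± 25 FPKM, and TMSB10, a thymosin that binds actin monomers, at 1766 ± 141 FPKM. S100A6, a calcium-binding protein, had 1514, 1555 and 1283 FPKM, so that vehicle 3 was the lowest. The list was closed by ACTB and ACTG1, the cytoplasmic actins, RPS12 and RPL8 of the ribosome, and the chaperone HSP90AB1 at 996 ± 26.4 FPKM. The remaining mitochondrial members were MT-ND1, MT-ND2, MT-ND3, MT-ND4, MT-ND4L and MT-CYB. With the length of the longest protein-coding transcript in place of the exonic length, 16 of the 20 stayed in the list, and MT2A (3425) stood above FTL (2584) as the leading nuclear gene.

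The 12 markers that were given with the label of the cells divided into 9 expressed genes and 3 near or at 0. VIM, the mesenchymal filament vimentin, had 261, 269 and 261 FPKM in vehicle 1, 2 and 3. CD44, the hyaluronan receptor, had 94.4, 95.4 and 99.9 FPKM. CAV1, the coat protein of caveolae, had 102, 99.5 and 108 FPKM. These genes varied little, and vehicle 3 was the highest for CD44 and CAV1 but not for VIM. The receptor tyrosine kinase AXL, the highest of the markers on this scale, had 292, 300 and 286 FPKM (rank 89 of all protein-coding genes). EGFR had 41.6, 43.4 and 44.7 FPKM. ERBB2, which encodes HER2, was lower at 6.76, 6.81 and 6.44 FPKM (rank 5766).

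Epithelial keratins were abundant beside these mesenchymal genes. KRT7 had 169, 171 and 167 FPKM and KRT18 131, 133 and 124 FPKM in vehicle 1, 2 and 3. EPCAM, an epithelial adhesion molecule, was expressed at a low level of 6.83, 5.99 and 6.77 FPKM. The levels of ERBB2 and EPCAM, next to each other in the order of the markers, differed by less than the SD of EPCAM (0.469 FPKM). CDH1, the E-cadherin gene, was close to silent with 3, 5 and 6 counts, or 0.0401 ± 0.0146 FPKM (n = 3). ESR1, the estrogen receptor, had 4 counts in each sample, a mean of 0.0152 FPKM. PGR, the progesterone receptor, had 0 counts in all samples, which allows up to 0.00341 FPKM (3 counts over the summed depth; counting error only). ESR1 ranked 14486 of 19951 and PGR was among the genes with 0 counts. None of the 12 markers contradicted the label of the cells, but they were given with that label and are no independent check of it. The order of the highest markers depended on the gene length: with the longest protein-coding transcript, VIM stood at 637 and AXL at 319. Of the exonic bases of VIM, 24.4% are shared with other genes, as are 16.3% of those of KRT18, so that their levels may be understated where such reads were left out.

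**Figure D2:**
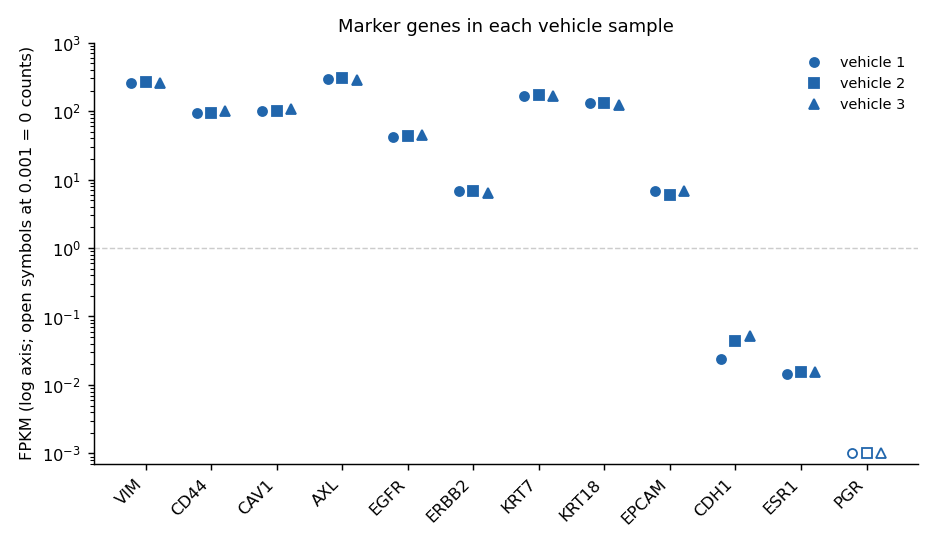
FPKM (log axis) of the 12 marker genes in vehicle 1 (circles), vehicle 2 (squares) and vehicle 3 (triangles), with a dashed line at 1 FPKM and open symbols for 0 counts. AXL, VIM, KRT7, KRT18, CAV1 and CD44 sit near or above 100 FPKM in every sample, EGFR, ERBB2 and EPCAM lie between, and CDH1, ESR1 and PGR fall below 0.1 FPKM.

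Promoters of 4 highly expressed markers are shown because they differ in CpG dinucleotides, the base step that most constitutive promoters of human genes are rich in. The 250 bases before the RefSeq transcription start nearest to the start of the gene are printed 5′ to 3′ on the strand of the gene, on GRCh38.p14, with every CG in capitals.
AXL, chr19:41218973-41219222, plus strand: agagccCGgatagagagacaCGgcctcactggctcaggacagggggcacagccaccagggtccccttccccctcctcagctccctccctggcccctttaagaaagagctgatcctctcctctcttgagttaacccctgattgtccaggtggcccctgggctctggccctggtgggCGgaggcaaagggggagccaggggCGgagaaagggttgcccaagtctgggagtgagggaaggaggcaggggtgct
VIM, chr10:17227991-17228240, plus strand: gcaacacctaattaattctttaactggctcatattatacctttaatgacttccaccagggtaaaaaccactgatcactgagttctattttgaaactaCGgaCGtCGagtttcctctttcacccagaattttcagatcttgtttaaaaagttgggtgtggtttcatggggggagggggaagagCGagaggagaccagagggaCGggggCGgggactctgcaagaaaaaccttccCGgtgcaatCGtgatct
CAV1, chr7:116524759-116525008, plus strand: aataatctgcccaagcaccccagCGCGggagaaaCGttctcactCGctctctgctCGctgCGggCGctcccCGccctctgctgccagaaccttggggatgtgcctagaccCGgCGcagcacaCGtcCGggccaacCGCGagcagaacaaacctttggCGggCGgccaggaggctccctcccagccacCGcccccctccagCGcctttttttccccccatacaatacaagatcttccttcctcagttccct
EGFR, chr7:55018767-55019016, plus strand: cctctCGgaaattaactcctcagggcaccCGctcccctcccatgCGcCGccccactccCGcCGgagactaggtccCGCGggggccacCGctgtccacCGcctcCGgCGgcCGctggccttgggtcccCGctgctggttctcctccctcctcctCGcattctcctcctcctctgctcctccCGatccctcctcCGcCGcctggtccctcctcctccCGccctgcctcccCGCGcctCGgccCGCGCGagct
The AXL window holds 4 CG at 0.155 times the number expected from its C and G content, and that of VIM 8 at 0.613 times. The window of CAV1 holds 18 CG (0.774 times) and that of EGFR 25 (0.881 times). A GC box, GGGCGG or its complement CCGCCC, was found in each of the 4 windows, and a TATA box, TATAAA or TTTATA, in none of them. CAV1 has 3 RefSeq starts and AXL and EGFR 2 each, and other starts of these genes are not shown.

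Over all protein-coding genes, promoters of higher genes were more often CpG-rich. RefSeq held a promoter for 14886 of 19934 protein-coding symbols (74.7%), and a window was taken as CpG-rich at 50% GC or more with a CG number at least 0.6 times the expected. This applied to 24.6% of the promoters of genes with 0 counts, to 37.2% of those under 0.1 FPKM, to 55.8% between 0.1 and 1 FPKM, to 78.6% between 1 and 10 FPKM, to 84.5% between 10 and 100 FPKM and to 83.8% at or above 100 FPKM. Over all matched promoters the share was 61.6%. GC boxes, which themselves hold a CG, went the same way, from 30.4% at 0 counts to 71.7% at or above 100 FPKM, against 57.2% of all. The median GC content of the windows was 52.8% at 0 counts, 65.6% between 10 and 100 FPKM and 64.0% at or above 100 FPKM. The shares of CpG-rich windows, GC boxes and TATA boxes are therefore not independent, and the part of base composition in them was not tested. The TATA box was found in 19.1% of the promoters of genes with 0 counts, fell to 4.37% between 1 and 10 FPKM and stood at 10.8% at or above 100 FPKM, against 9.11% of all. The letters CCAAT or ATTGG were found in 33.7% and 42.1% at the ends of the scale, against 34.5% of all. These shares are descriptions of the windows and name no site in use. A level of at least 100 FPKM was reached without a CpG-rich window by 48 of 297 matched genes, AXL and VIM among them.

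Epithelial genes were present in part. Of 30 listed genes, 15 were expressed, a share close to the 50.5% of all protein-coding genes, and their median was 1.61 FPKM against 1.19 FPKM over all genes. The keratins KRT7, KRT18 and KRT8 led, the last at 128 ± 8.09 FPKM. SPINT2, an inhibitor of membrane serine proteases, followed at 61.2 ± 3.98 FPKM, before KRT19 at 53.2 ± 5.21 FPKM. AP1M2, which sorts cargo to the basolateral membrane, had 21.3 ± 1.97 FPKM. At the other end lay GRHL2, OVOL1 and OVOL2, regulators of the epithelial program, and PRSS8, a membrane protease. GRHL2 had a count of 1 over the 3 samples, OVOL1 2, OVOL2 0 and PRSS8 1. GRHL1, a relative of GRHL2, had 12, 26 and 15 counts in vehicle 1, 2 and 3. ESRP2, a splicing factor of epithelial cells, was expressed at 3.65 FPKM while its relative ESRP1 stood at 0.0971 FPKM. Vehicle 3 was the lowest for 14 of the 20 epithelial genes whose mean count reached 10 (70.0%), against 38.7% of all genes with such counts. Over all genes, the deviation of vehicle 3 moved with GC content, as described below, and the part of GC content in the epithelial pattern was not tested.

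Mesenchymal genes were present in part too. Among 34 listed genes, 18 (52.9%) were expressed, near the 50.5% of all protein-coding genes. At or above 100 FPKM were 4 of the 34, beside 3 of the 30 epithelial genes and 1.94% of all genes. The median was 3.85 FPKM against 1.19 FPKM over all genes, and the difference from the epithelial list was not tested. MSN, which ties actin to the membrane, had 118 ± 1.62 FPKM, and MMP14, a membrane-bound collagenase, 110 ± 3.91 FPKM. The collagen cross-linking enzyme LOXL2 stood at 55.8 ± 4.05, the urokinase gene PLAU at 47.8 ± 2.56 and S100A4 at 45.3 ± 3.37 FPKM. The transcription factors of the transition were unequal. SNAI2 had 9.88, 9.81 and 11.1 FPKM and ZEB1 5.98, 5.95 and 7.11 FPKM, both highest in vehicle 3. ZEB2 and SNAI1 stayed below 1 FPKM, at 0.636 ± 0.0466 and 0.642 ± 0.113 FPKM. TWIST1, TWIST2 and the matrix protein POSTN had 0 counts. CDH2, the N-cadherin gene, was low at 0.519 ± 0.0535 FPKM, and COL1A2, a chain of type I collagen, had 3 counts in all. Fibronectin, FN1, was expressed at 20.5 ± 0.539 FPKM.

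No basal keratin of the list reached 1 FPKM, whereas the luminal keratins were abundant and other luminal genes were mixed. Of 29 basal and myoepithelial genes, 11 (37.9%) were expressed and 7 had 0 counts. The expressed members included adhesion genes, with LAMB3, a chain of a basement membrane laminin, at 119 ± 4.25 FPKM and the laminin receptor chain ITGA6 at 48.1 ± 2.01 FPKM. SOX9, a transcription factor of progenitor cells, had 20.9, 21 and 21.6 FPKM. The basal keratins KRT5, KRT6A and KRT6B had 0 counts and KRT14 had 2 in all. KRT15 had 67, 79 and 53 counts (0.493 ± 0.0995 FPKM) and KRT17 9, 9 and 8 (0.145 ± 0.00843 FPKM). TP63, the p63 gene, had 10 counts in all. Of 29 luminal genes, 10 (34.5%) were expressed, 3 of them the keratins already given. XBP1, a factor of secretory cells, stood at 30.7 ± 0.406 FPKM, the zinc transporter SLC39A6 at 19.5 ± 0.835 FPKM and MLPH, a melanosome transport protein, at 16.2 ± 0.645 FPKM. The luminal factors formed a descending series, with SPDEF at 12.1 ± 1.16, GATA3 at 3.84 ± 0.174 and FOXA1 at 0.995 ± 0.158 FPKM. AGR3 and ELF5 had 0 counts. Both lists were below the 50.5% of all genes in their share of expressed members.

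Surface proteins used to sort mammary and stem-like cells, listed together with stem cell factors and enzymes, were mixed. Of 19 genes, 9 (47.4%) were expressed, near the 50.5% of all protein-coding genes. ITGB1, the beta-1 integrin chain, had 173, 175 and 185 FPKM and NT5E, the ecto-nucleotidase CD73, 139, 138 and 148 FPKM, with vehicle 3 the highest for both. PROCR, the protein C receptor, stood at 30.5 ± 1.45 FPKM. CD24 was low at 2.94, 2.77 and 3.05 FPKM, so that on this scale CD44 was the more abundant in every sample. The stem cell factors NANOG and LIN28B had 0 counts, and PROM1, ALDH1A1 and THY1 had means of 0.00726, 0.0058 and 0.00558 FPKM.

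**Figure D3:**
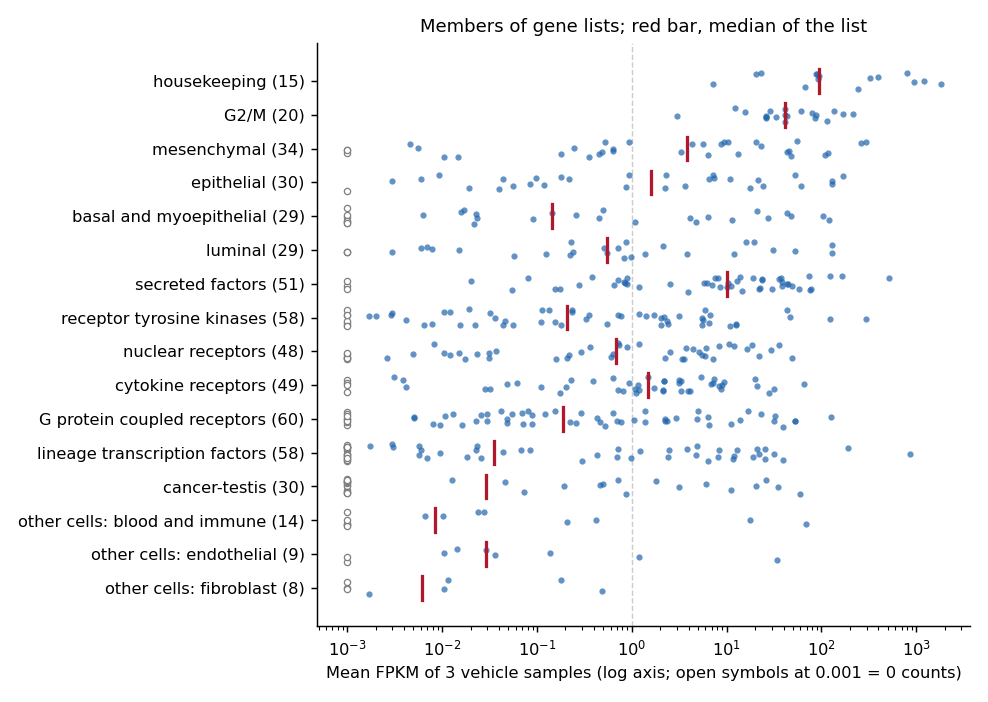
Mean FPKM (log axis) of the members of 16 gene lists, with the number of members in brackets, open symbols for 0 counts, a red bar at the median of each list and a dashed line at 1 FPKM. Housekeeping and G2/M genes lie to the right of the line, mesenchymal, epithelial and receptor lists spread over the whole axis, and most members of the lists for other cell types lie to the left.

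Receptors of growth factors were dominated by a few members. Among 58 receptor tyrosine kinases, 22 (37.9%; all protein-coding genes, 50.5%) were expressed, 7 had 0 counts and the median was 0.206 FPKM. Behind AXL, whose ligand is GAS6, came the ephrin receptor EPHA2 with 126, 129 and 116 FPKM and the hepatocyte growth factor receptor MET with 45.2, 44.7 and 49.1 FPKM. EGFR followed, and EPHB4 and EPHB2 stood at 12.7 ± 0.430 and 12.5 ± 0.795 FPKM, which is within their SD of each other. AXL, EPHA2 and ERBB2 were lowest in vehicle 3, whereas MET and EGFR were highest there. RET, FGFR2, FLT3 and FLT4 were among the receptors with 0 counts. Of 49 cytokine receptors, 28 (57.1%) were expressed, against the same 50.5%. TGFBR2, the type II receptor of TGF-beta, led at 65.3 ± 1.96 FPKM, before IL6ST, the shared signal chain of interleukin-6 type cytokines, at 31.8 ± 3.19, TNFRSF1A at 28.3 ± 0.399, OSMR, a receptor of oncostatin M, at 20.95, IL13RA1 at 19.9 and TGFBR1 at 9.32 FPKM. GHR, IL10RA, CSF3R and IL2RG had 0 counts, though 50.8% of the exonic bases of IL2RG are shared with another gene.

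Of 48 nuclear receptors, 21 (43.8%) reached 1 FPKM in every sample, against 50.5% of all protein-coding genes. NR2F2, also known as COUP-TFII, led at 48.5 ± 1.09 FPKM, and the orphan receptor ESRRA, the oxysterol receptor NR1H2 and NR2F6 stood at 35.6 ± 1.12, 29.3 ± 0.705 and 22.0 FPKM. NR1D2, a receptor of the circadian clock, had 18.5 FPKM and RXRB 16.3 FPKM. The glucocorticoid receptor NR3C1 was expressed at 11.8, 11.4 and 13.2 FPKM. PGR, HNF4A, RXRG and NR2E1 had 0 counts. In the list of 60 G protein coupled receptors, 20 (33.3%) were expressed, again against 50.5%. F2RL1, a protease-activated receptor, had 121, 127 and 127 FPKM. The adhesion receptor ADGRE5, the adenosine receptor ADORA2B and GPRC5A stood at 52.9 ± 2.16, 52.3 ± 1.31 and 39.6 ± 0.445 FPKM, and the Wnt receptor FZD2 and the lysophosphatidic acid receptor LPAR1 at 32.4 and 31.8 FPKM. SMO, the signal transducer of the Hedgehog pathway, had 0 counts, which allows up to 0.0122 FPKM. FZD9, FZD10 and ADORA1 had 0 counts too.

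Of 51 secreted factors, 35 (68.6%) were expressed, against 50.5% of all protein-coding genes, with a median of 10.1 FPKM. CCN1, listed under its older name CYR61, is a matrix protein induced through YAP, and it was the highest with 524, 523 and 519 FPKM. DKK1, an inhibitor of Wnt signalling, had 167, 169 and 159 FPKM, and CCN2, listed as CTGF, 121, 120 and 126 FPKM. The neutrophil chemokines CXCL8 and CXCL1 stood at 78.4 ± 4.11 and 75.8 ± 2.30 FPKM and THBS1, thrombospondin-1, at 74.4 ± 1.67 FPKM. HGF, IGF1 and IGF2, the ligands of MET and of the IGF1 receptor, had 0 counts, although 82.4% of the exonic bases of IGF1 are shared with another gene. IGF2 has 2 entries in the table, with 90.02% and 75.01% of exonic bases shared, largely with each other, so that the values of both genes are uncertain. FGF2 had a mean of 0.0202 FPKM. Of 24 genes known from bone, lung and brain metastatic derivatives of this line, 17 (70.8%) were expressed, against 50.5% of all protein-coding genes. ID1, an inhibitor of differentiation factors, stood at 64.2 ± 1.03 FPKM, ANGPTL4 at 38.4 ± 1.04, IL11 at 37.5 ± 0.624, HBEGF at 28.9 to 31.2 and ADAMTS1 at 29.3 FPKM, whereas VCAM1, SPARC, MMP2 and SPP1 were under 0.1 FPKM. This list was drawn from work on the same line and is no independent evidence.

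Proliferation, stress and early response genes were largely expressed, beside the 50.5% of all protein-coding genes. All 20 G2/M genes reached 1 FPKM, with a median of 41.4 FPKM. CDC20, an activator of the anaphase-promoting complex, had 221, 223 and 205 FPKM, UBE2C 167 FPKM and the cyclin CCNB1 136 FPKM. The lowest was NUSAP1 at 3.02 FPKM, 62.2% of whose exonic bases are shared with another gene. Of 21 immediate early genes, 17 (81.0%) were expressed, led by IER3 at 243 and FOSL1, an AP-1 subunit, at 190 FPKM, with JUN at 81.1 and MYC at 77.9 FPKM. FOS itself had 1.68 FPKM, and EGR2 and EGR3 had 0.135 and 0.0319 FPKM. Among 15 genes of the unfolded protein and amino acid responses, 13 (86.7%) were expressed. HSPA5, the chaperone of the endoplasmic reticulum, stood at 240 FPKM, the factor ATF4 at 223 FPKM and PSAT1, of serine synthesis, at 137 ± 1.93 FPKM. PHGDH, the enzyme before PSAT1 in that pathway, had 6, 4 and 5 counts, or 0.0284 ± 0.00454 FPKM. All 19 cholesterol synthesis genes were expressed, and 13 of 16 hypoxia genes, with the glucose transporter SLC2A1 at 88.5 FPKM and CA9 at 0.0719 FPKM. Of 20 interferon-stimulated genes, 14 (70.0%) were expressed, ISG15 at 86.5 and IFIT3 at 30.5 FPKM, and MX2 and IRF9 were lowest at 0.153 and 0.213 FPKM.

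Among 58 lineage transcription factors, 21 (36.2%) were expressed and 17 had 0 counts, whereas 50.5% of all protein-coding genes were expressed and 21.1% had 0 counts. HMGA1, an architectural chromatin protein, had 865, 867 and 853 FPKM and stood at rank 23 of all protein-coding genes. FOSL1, ETS1 and FOXM1, the last a driver of mitotic genes, had 190 ± 2.69, 39.0 ± 0.755 and 31.9 ± 0.324 FPKM. TEAD1, a partner of YAP, and FOXQ1 both had a mean of 25.3 FPKM. FOXA2, a factor of endoderm, was expressed at 21.9 FPKM while FOXA1 was just under 1 FPKM. The muscle factor MYOD1, the intestinal factors CDX1 and CDX2, the liver factor HNF4A and the blood factor GATA1 had 0 counts.

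HOX genes, which set position along the body axis, stayed below 1 FPKM outside a single cluster. Of 39 genes, 2 were expressed, both in the HOXB cluster on chromosome 17, and 19 had 0 counts. Over all protein-coding genes, 50.5% were expressed and 21.1% had 0 counts. HOXB9 had 15.9, 14.3 and 13.9 FPKM and HOXB7 1.59, 1.55 and 1.67 FPKM. Neighbouring HOXB genes were close to the threshold, HOXB3 at 0.963 ± 0.109 and HOXB8 at 0.811 ± 0.0767 FPKM. The summed level was 19.5 FPKM in the 10 HOXB genes, 1.04 FPKM in the 9 HOXD genes, 0.860 FPKM in the 9 HOXC genes and 0.0983 FPKM in the 11 HOXA genes, 8 of which had 0 counts.

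Cancer-testis genes, many of which are normally limited to germ cells, were expressed in 8 of 30 cases (26.7%; all protein-coding genes, 50.5%), and 14 had 0 counts. The 8 include members that are not so limited. MAGEC2 had 59.1, 59.1 and 59.5 FPKM, the mitotic kinase PBK 34.8 ± 1.39 FPKM and SSX1 20.4, 19.4 and 21.2 FPKM. MAGED2 and TTK, which dividing somatic cells also express, had 26.0 and 11.1 FPKM, and MAGED1 had 6.15 FPKM. PRAME, CTAG1B, MAGEA1 and MAGEA4 had 0 counts. SPANXB1, a gene outside the list that was chosen after its values were seen, reached 545 FPKM with 5203, 4939 and 4486 counts. Its relatives SPANXA1 and SPANXA2 had 26, 3 and 1 and 4, 2 and 83 counts in vehicle 1, 2 and 3, and since such copies share reads, their single values are uncertain.

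Most markers of other cell types were below 1 FPKM, though several were detected in every sample. For comparison, 50.5% of all protein-coding genes were expressed and 21.1% had 0 counts. In bulk RNA, fewer cells of a type and less RNA per cell cannot be told apart. Of 14 blood and immune genes, 2 were expressed, namely CD74, the invariant chain, at 70.6, 67.4 and 68.0 FPKM and HLA-DRA, a class II molecule, at 17.2, 16.7 and 19.6 FPKM. The leukocyte gene PTPRC stood at 0.210 ± 0.00806 FPKM and CD14 at 0.417 ± 0.185 FPKM, and CD3D, CD3E, MS4A1, TYROBP, HBA1 and HBB had 0 counts. The summed level of the list was 88.5, 85.1 and 88.1 FPKM in vehicle 1, 2 and 3. Of 9 endothelial genes, ESAM, a junction protein, was expressed at 35.6, 35.8 and 32.0 FPKM and KDR, the VEGF receptor, at 1.2 FPKM, while CDH5 and EMCN had 0 counts. None of the 8 fibroblast, 5 adipocyte, 6 liver, 7 neural, 6 muscle or 6 germ cell genes was expressed. The fibroblast list summed to 0.737, 0.684 and 0.630 FPKM, most of it COL1A1, and PDGFRB had 26, 28 and 19 counts (0.179 FPKM). DCN, FAP and POSTN had 0 counts, and LUM and COL3A1 had 2 and 4 in all. The adipocyte list did not exceed 0.0743 FPKM in any sample, the liver list 0.0869, the muscle list 0.144 and the germ cell list 0.0422 FPKM. The neural list reached 0.464 FPKM, in which GFAP was the most abundant gene.

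Several large families of tissue-restricted genes were mostly silent, whereas 21.1% of all protein-coding genes had 0 counts and 50.5% were expressed. Of 386 olfactory receptors, 349 (90.4%) had 0 counts and none was expressed, with OR5K2 the highest at 0.201 FPKM. The same held for 87 of 94 keratin-associated proteins (92.6%), 37 of 39 beta-defensins (94.9%), 17 of 18 late cornified envelope genes (94.4%), all 13 interferon alpha genes and 15 of 24 bitter taste receptors (62.5%). KRTAP2-3 was the single expressed member among these at 3.21 FPKM. Keratins were split, with 31 of 55 at 0 counts (56.4%) and 9 expressed. Of 84 cytosolic ribosomal protein genes, 79 were expressed, 3 had 0 counts, and together they held 8.68% of protein-coding FPKM, with RPS12 at 1149 FPKM in front. No annexin had 0 counts, and ANXA5 led them at 347 FPKM, while TUBB led the tubulins at 715 FPKM, HSPA8 the heat shock proteins at 465 FPKM and ITGB1 the integrins. Of 374 solute carriers, 168 (44.9%) were expressed, against 50.5% of all protein-coding genes, led by the ADP/ATP carrier SLC25A5 at 467 FPKM, and of 514 zinc finger genes, 291 (56.6%), led by ZNF185 at 37.4 FPKM. CLDN4 at 17.6 FPKM and CYP1B1, which oxidizes estrogens and pollutants, at 22.0 FPKM led the claudins and the cytochrome P450 genes. S100A6 led the S100 family, TMSB10 the actins and thymosins, EEF1A1 the elongation factors, TAS2R5 the bitter taste receptors at 0.641 FPKM and PCDHB2 the clustered protocadherins at 1.23 FPKM.

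Silent genes also ran in stretches along the chromosomes. The longest run of neighbouring protein-coding genes with 0 counts was on chromosome 11 between OR4A15 and APLNR (chr11:55367884-57237314, GRCh38) and held 49 genes, 45 of them olfactory receptors. On chromosome 1, 45 genes from CRCT1 to S100A7 belong to the epidermal differentiation region, and on chromosome 21, 33 of a run of 35 were keratin-associated proteins. The run on chromosome 9 was of another kind. There, 25 genes from HACD4 to IZUMO3 (chr9:20999515-24545946) had 0 counts in every sample, and 16 of them were interferon genes. The others included MTAP, a methionine salvage enzyme, the cell cycle inhibitors CDKN2A and CDKN2B, KLHL9, an adaptor of a ubiquitin ligase, and HACD4, of fatty acid elongation, as well as DMRTA1 and ELAVL2. Of all 68 annotated genes inside these 3546432 bases, 67 had 0 counts, and the pseudogene CLIC4P1 accounted for all 30 counts found. On the left of the run, FOCAD had 53, 63 and 61 counts (0.310 ± 0.0420 FPKM) and MLLT3 2.32 ± 0.217 FPKM. On the right, TUSC1, chosen like CLIC4P1 after the values were seen, had 8.33, 9.58 and 7.88 FPKM. Whether the DNA of the region is present was not measured.

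Genes that share most of their exonic bases with another gene were seldom expressed. The sources used here do not say that reads were counted by strand, and a read on bases shared by several genes can be left out of all of them. Among the 11097 protein-coding genes that share no exonic base with another gene, 46.6% were expressed, and among the 6697 with up to 25% shared, 64.1% were. The share was 48.1% above 25 to 50%, 24.9% above 50 to 75% and 3.57% of 420 genes above 75% but under 100%. Of the 312 genes whose exonic bases are all shared, none was expressed, and 98.4% had at most 3 counts in all. Genes with up to 25% shared were thus expressed more often than genes with none, and whether the counting of shared bases accounts for the low shares above 50% was not tested. Of the proteins that the study followed by immunoblotting, GAPDH was expressed at 945 ± 16.6, H2AX, listed as H2AFX, at 141 ± 4.04, PARP1 at 57.8 ± 1.29 and VCL at 33.4 FPKM. The checkpoint kinase CHEK1 had 10.9 FPKM, and FANCD2, ATR and ATM had 4.82, 3.53 and 2.64 FPKM. CYP51A1, of cholesterol synthesis, and IFNAR2, an interferon receptor chain, stood at 2.82 and 0.201 FPKM with 83.2% of exonic bases shared in each, and ASNS at 0.469 FPKM with 44.6%. Shares above 25% were also found for IRF9 (48.4%), CA9 (38.5%), PLAU (31.1%), IER3 (26.5%), and for AK1 (33.5%), GPS2 (52.5%) and LIME1 (60.3%) among the genes below.

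**Figure D4:**
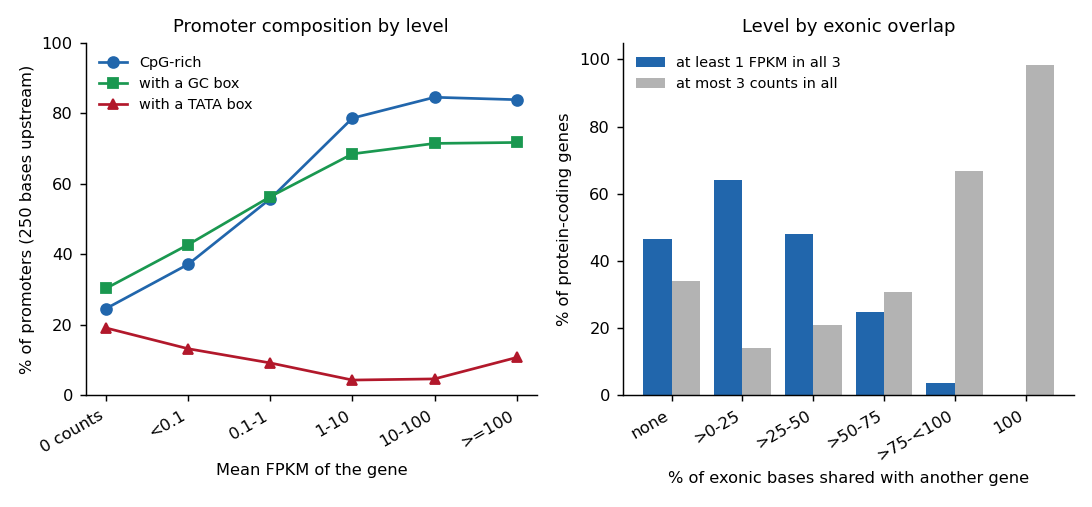
Left, percentage of RefSeq promoter windows that are CpG-rich, hold a GC box or hold a TATA box, by the mean FPKM of the gene; the CpG-rich share rises from 24.6% at 0 counts to 83.8% at or above 100 FPKM. Right, percentage of protein-coding genes at 1 FPKM or more in all 3 samples (blue) and with at most 3 counts in all (grey), by the percentage of exonic bases shared with another gene; no gene with all bases shared is expressed.

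Replicates were close for most genes. The common biological coefficient of variation (CV) of edgeR, the spread beyond counting noise, was 5.25% over 12371 protein-coding genes whose mean count reached 10, and 2.49% without vehicle 3. For the 10192 genes whose mean count reached 100, the median CV of normalized counts was 5.29%, 4778 (46.9%) were under 5% and 67 were over 20%. At mean counts of 100 to 300, the median CV of 8.31% was near the 7.29% that counting alone gives, and above 10000 counts it was 3.26% against 0.805%. The housekeeping list had a median CV of 2.41%, and all 15 genes were expressed, from TBP at 7.13 to EEF1A1. Vehicle 3 was the lowest for 11 of these 15 genes (73.3%), against 38.7% of all genes whose mean count reached 10. The narrowest genes above a mean count of 1000 were ZNF367 at 0.0603%, ADAMTS1 at 0.0757% and PPP1R13L at 0.0991%, below their counting noise of 3.09%, 1.59% and 2.84%, so that their order holds no information. The other narrow genes were DDX1, FBXO21, ZDHHC5, ATF4, IFIT2, ARHGAP23 and PSMB2.

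Several of the 15 widest genes were members of near-identical pairs. The pairs were picked after the values were seen. The share of such genes among all 10192 genes whose mean count reached 100 was not counted. XAGE1B had 103, 382 and 72 counts in vehicle 1, 2 and 3 (CV 94.0%), EIF3CL 300, 94 and 450 (65.7%), and U2AF1L5 450, 195 and 684 (57.4%). GPR89B and GPR89A, SMN1 and SMN2, and GATD3A were also among the 15, so that 8 of them have a copy whose reads can be assigned either way. Summing the pair, a step chosen after the values were seen, lowered the CV to 16.8% for SMN1 with SMN2, whose own values were 37.7% and 30.5%. It was 17.8% for GPR89A with GPR89B, against 29.3% and 53.8%. For EIF3C with EIF3CL the sum still had a CV of 30.8%, for U2AF1 with U2AF1L5 40.3% and for XAGE1A with XAGE1B 78.3%. EIF3C alone (22.7%) and XAGE1A alone (33.1%) were narrower than the sums of their pairs. For GATD3A with GATD3B the sum had 26.1%, against 32.2% and 15.8%. The single values of these genes are uncertain. The other 7 were GPS2, LIME1, ZNF680, ACADS, LHPP, AK1 and RHOD, and 6 of them were lowest in vehicle 3, LHPP only narrowly. GPS2, for instance, had 151, 149 and 73 counts. Among all genes whose mean count reached 10, 38.7% were lowest in vehicle 3. In the bin of highest GC content described below, 69.7% were. The transcripts of the 6 genes have 58.1% to 70.0% GC, within that bin. The part of GC content in their pattern was not tested.

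The distance of vehicle 3 followed the base composition of the transcripts. Deviations were taken as the log2 normalized count of a gene in a sample minus its mean over the 3 samples. Genes were ordered by GC content and split into 4 equal bins. In the bin of lowest GC content (30.2% to 42.0% of the longest protein-coding transcript), the median deviation of vehicle 3 was 0.09, and 74.1% of genes were highest there. It was 0.03 in the second bin, -0.03 in the next and -0.07 in the bin of highest GC content (56.8% to 74.1%), in which 69.7% of genes were lowest in vehicle 3. Vehicle 2 went the other way, from -0.05 to 0.05, and vehicle 1 from -0.03 to 0.03. Since deviations are taken from the mean of the 3 samples, vehicle 1 and 2 together mirror vehicle 3 by construction. By exonic length, vehicle 3 moved from -0.04 in the bin of shortest genes to 0.04 in the longest. Of 80 ribosomal protein genes, 53 (66.2%) were lowest in vehicle 3, and of 10 keratins 8 (80.0%), against 38.7% of all genes. Of 431 zinc finger genes, 25.5% were lowest there and 41.8% highest, against 39.8% of all genes highest there. GC content and length moved with the order of the samples, and whether they account for it was not tested.

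**Figure D5:**
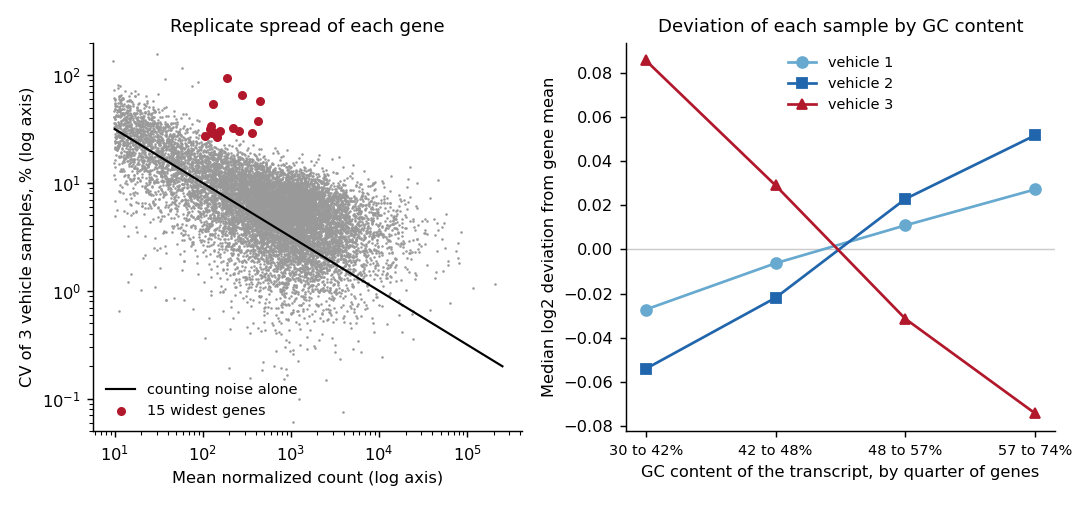
Left, CV of the 3 vehicle samples (log axis) against the mean normalized count (log axis) of 12371 protein-coding genes, with the spread of counting alone as a line and the 15 widest genes in red, all well above that line. Right, median log2 deviation of vehicle 1, 2 and 3 from the mean of each gene in 4 equal bins of transcript GC content; vehicle 3 falls from 0.09 to -0.07 while vehicle 2 rises from -0.05 to 0.05.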

How the data were processed

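RNA sequencing libraries of poly-T purified mRNA from 3 vehicle-treated MDA-MB-231 samples were analysed, and the 3 SCH samples were not used. The authors deposited raw counts per gene and, per sample, FPKM values that divide the count by exonic gene length and a scale of the sample. The submitters' processing notes name CASAVA 1.8, HISAT2 2.0.5, featureCounts 1.5.0-p3, DESeq2 1.20.0 and GRCh38, with no settings. Gene lengths equalled merged exons of GENCODE 29 for 58690 of 58735 genes.

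FPKM values were used as deposited, with the mean and SD over 3 samples. No test was run, since a single group is described. Replicate spread was computed in R 4.3.3 with edgeR 4.0.16 (TMM normalization, intercept only) and checked on simulated data. Python 3.11.15 served for tables and plots. Log2 values had a prior count of 1. Upper limits for genes with 0 counts took 3 summed counts. The genes named are the 12 markers, the 20 highest genes, up to 6 highest and 4 lowest members of each list, the leading gene of each family, the 15 widest and 10 narrowest genes, and promoters of markers. Other list members were named after their values were seen. Lists were written from general knowledge. The members and lists were chosen with earlier results of these data known. Promoters are from RefSeq (GRCh38.p14), and transcript GC content is from GENCODE 29. Alternatives were TPM, other thresholds and normalizations, other gene lengths and each replicate left out. Some genes of these lists are not reported here.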

Additional observations from a re-analysis of the deposited data

Results flagged for a closer look

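Genes outside the protein-coding biotype carried signal that the account above did not use. They took 2.10%, 2.04% and 2.10% of the counts in vehicle 1, 2 and 3, in libraries selected for poly-A tails. Processed pseudogenes were the largest single biotype among them, with 0.443% of all counts. Long non-coding RNA genes took 0.790%, 0.782% and 0.786% of the counts in vehicle 1, 2 and 3. Of 14827 long non-coding RNA genes, 511 (3.45%) reached 1 FPKM in every vehicle sample and 8544 had 0 counts. SNHG5 stood at 108 ± 6.42 FPKM (SD, n = 3), SNHG8 at 102 FPKM, LRRC75A-AS1 at 100.03 ± 3.80 FPKM and GAS5 at 71.6 ± 2.46 FPKM. NORAD, a long RNA that binds PUMILIO proteins, stood at 52.3 ± 2.78 FPKM. MT-RNR2, the large mitochondrial ribosomal RNA, had 2142, 2020 and 2231 FPKM (mean 2131). GPX1, glutathione peroxidase 1, had a mean of 462 FPKM and was left out above because the annotation lists it as a polymorphic pseudogene. RN7SL2, an RNA of the signal recognition particle, had 313 FPKM in vehicle 1 against 64.1 and 71.1 FPKM in vehicle 2 and 3, and the cause was not tested. No sample was tested as an outlier, since the group holds 3.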

How the results depend on the processing

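The number of expressed genes (10067) lay between 10121 and 10127 with a replicate left out and reached 11435 at 1 TPM, 10898 at 0.5 FPKM, 12123 at 10 counts in every sample and 10243 by the mean. Genes with 0 counts (4206) numbered 4555 to 4626 with a replicate left out and 5670 at up to 3 summed counts. The 387 genes at or above 100 FPKM were 386 to 390 with a replicate left out, but 1687 at 100 TPM, since a marker's TPM was 3.48 to 3.49 times its FPKM, and 647 with the length of the longest protein-coding transcript, an alternative added after seeing the data. The share of the 100 most abundant genes (32.1%) was 32.0% to 32.2% with a replicate left out, 23.2% without mitochondrial genes and 18.2% as a share of counts. The common CV (5.25%) was 2.49% without vehicle 3 and 6.71% without vehicle 1, and 5.18% to 5.51% under the other normalizations, filters and gene sets. Each of the 11 markers with a count moved by less than 1 SD with TMM library sizes. Transcript length raised them 1.09 to 2.42 times. RLE size factors named the same 15 widest genes. No paired analysis was possible because only a single group is described. Depth limits what is said of genes with few counts, and intervals and floors cover counting error only.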
